A study of Mus musculus with 6 samples.

Results

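The respiratory chain members described here are 91 genes of mouse CD8+ T cells from the spleen, out of 26181 genes in the deposited table. They were taken by name: symbols beginning Nduf (without the Ndufaf assembly factors), Sdha to Sdhd, Uqcr, Cox4 to Cox8 (without Cox6a2) and Atp5, and the mitochondrially encoded mt-Nd, mt-Co, mt-Atp and mt-Cytb genes. Of 104 symbols that matched, 9 annotated or named as pseudogenes were dropped, as were 4 genes with a mean normalised count under 10 (mt-Atp8, Cox4i2, Cox8b and Ndufa4l2). The remaining 79 nuclear and 12 mitochondrially encoded (mt) genes were all tested. Wild-type C57BL/6 mice, 6 weeks old at the start, received a diet labelled ND or a diet labelled CDAHFD for 7 weeks, the latter as a model of metabolic dysfunction-associated steatohepatitis (MASH). Each diet has 3 RNA-seq libraries of primary splenic CD8+ T cells. Whether the libraries of a diet are from different mice is not stated, and the spread behind each p-value is that of these libraries only and may be technical.

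Enzyme complexes of the inner mitochondrial membrane pass electrons from NADH (complex I) or succinate (complex II) through ubiquinone, complex III and cytochrome c to oxygen at complex IV, and ATP synthase (complex V) uses the proton gradient that complexes I, III and IV build. Most subunits are encoded in the nucleus and imported, while a small core is encoded by the mitochondrial genome, so that both genomes must supply subunits to every complex except complex II. In T cells the chain supports quiescence, memory and the exit from quiescence on activation.

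In CDAHFD libraries most nuclear subunit genes were lower by a small margin, and most mt-encoded genes did not pass the test. Of the 79 nuclear members 53 were lower, 2 were higher (Ndufab1 and Sdhc) and 24 did not pass the test (limma, Benjamini-Hochberg adjusted p under 0.05 over 15819 genes). Of the 12 mt members 1 was lower (mt-Atp6), 2 were higher (mt-Nd2 and mt-Nd4) and 9 did not pass. The comparison called 47.1% of all genes tested, 22.5% lower and 24.6% higher. Among tested protein-coding genes with means of 500 to 2000, 27.8% were lower, beside 33 of 44 nuclear members at that level. From 2000 upwards 33.0% were lower, beside 15 of 20 nuclear members. Of protein-coding genes with transcripts under 750 bases 35.0% were lower, beside 25 of 39 nuclear members. The median log2 fold change, CDAHFD over ND on the log2(normalised count + 1) scale, was -0.22 over the nuclear members and 0.02 over the mt members, against -0.01 over all genes tested. All 3 CDAHFD libraries lay below all 3 ND libraries for 51 of the 79 nuclear members, where 26.5% of all genes tested had that order. Of the 53 nuclear members called lower, 46 fell by less than 20% and 7 by 20% or more.

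**Figure D1:**
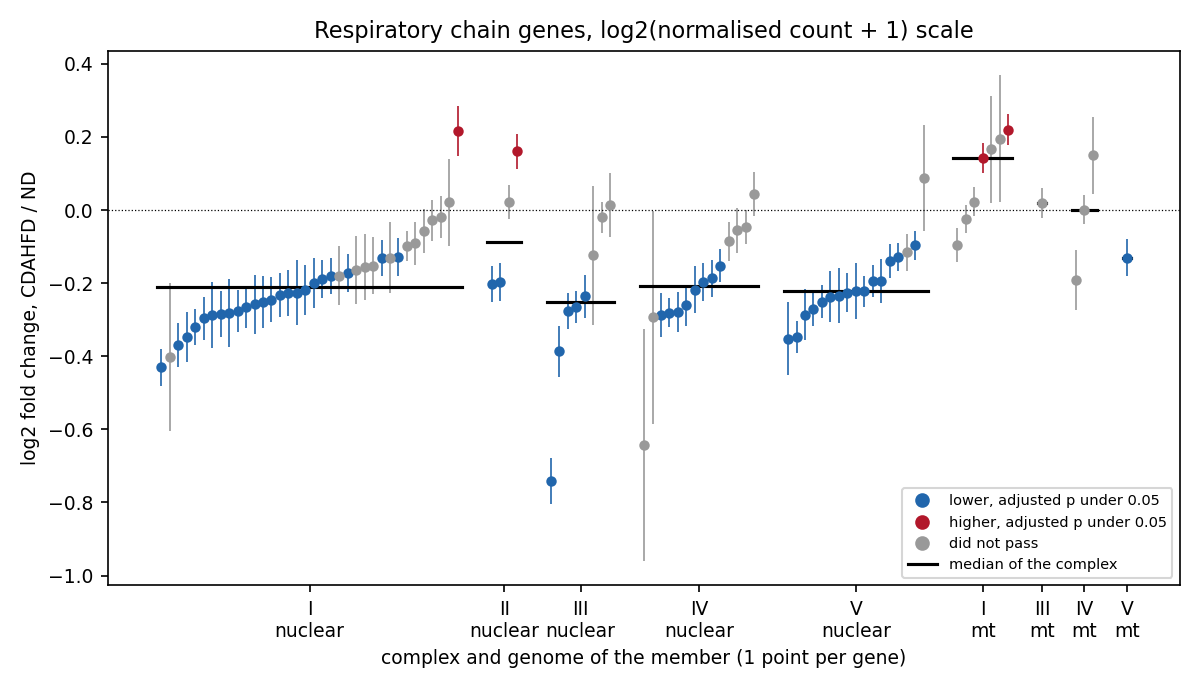
Log2 fold change (CDAHFD over ND, vertical axis, with SE) of each of the 91 members, placed by complex and by the genome that encodes it; black lines are medians. Nuclear complexes I, III, IV and V have medians between -0.25 and -0.21, and Uqcrq in complex III is the lowest point at -0.74.

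Between 25314988 and 28067393 reads per library were assigned to genes, as recovered from the deposited values. The labelled cell type was checked against its markers: Cd8a, Cd3e and the other CD8 T cell markers were abundant in every library. Their sum was 186049 to 191289 normalised counts in ND and 153834 to 159019 in CDAHFD, and 13 of 15 were lower, with a median of -0.30. Markers of other cells were also present and moved with the diet. The summed macrophage markers lay at 23944 to 26233 in ND and 187111 to 205783 in CDAHFD (17 of 18 higher, median 2.97), none of them at 0. For erythroid markers the sums were 933 to 970.4 and 9141 to 9457 (9 of 9 higher), and for neutrophil markers 3181 to 3279 and 10206 to 11219.9 (8 of 10 higher). B cell markers summed to 60703 to 61915 and 53532 to 56879 (10 of 12 lower, 1 higher). The part of these other cells in the members' values was not tested, and in bulk RNA fewer cells of a type cannot be told apart from less RNA per cell.

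Complex I, the NADH:ubiquinone oxidoreductase and the largest complex of the chain, had 36 nuclear members, of which 23 were lower and 1 was higher, with a median log2 fold change of -0.21. The largest change was in Ndufb11, an accessory subunit of the membrane arm encoded on the X chromosome (chrX:20615326-20617619, minus strand, in mm10). Its normalised counts were 1956, 2004 and 1812 in ND and 1474, 1436 and 1372 in CDAHFD. Every CDAHFD library was below every ND library, and Ndufb11 fell by 25.8%, a log2 fold change of -0.43 ± 0.05 SE (adjusted p = 4.84e-08). Part of Ndufb11 shares exonic bases with Rbm10 on the other strand, and the sources used here do not say whether reads were counted by strand. Ndufv3, a small subunit of the NADH-oxidising module, had 1167, 1264 and 1102 in ND and 892, 957 and 884 in CDAHFD. The groups did not overlap, and Ndufv3 fell by 22.7% (-0.37 ± 0.06 SE, adjusted p = 8.76e-06). Ndufa13, an accessory subunit also known as GRIM-19, had 1122, 1100.0 and 1075 in ND and 913, 930.0 and 842 in CDAHFD and a log2 fold change of -0.30 ± 0.06 SE (adjusted p = 0.000102), again without overlap. The other 15 accessory genes called lower ran from -0.35 for Ndufs4, a subunit at the base of the NADH module, to -0.18 for Ndufa10, a subunit of the membrane arm. They were Ndufs4, Ndufs6, Ndufc2, Ndufb6, Ndufa6, Ndufa11, Ndufb3, Ndufb5, Ndufa2, Ndufa7, Ndufb9, Ndufa1, Ndufa3, Ndufa9 and Ndufa10. Besides Ndufa12, described with Ndufab1, the accessory genes that did not pass were Ndufb4, Ndufa5, Ndufs5, Ndufb8, Ndufc1, Ndufa8, Ndufb7, Ndufb10 and Ndufb2, with log2 fold changes from -0.18 to 0.02.

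The 7 nuclear core subunits of complex I, which carry the flavin and the iron-sulfur clusters, had a median nearer 0 than the accessory subunits. Of the core genes 5 were lower with a median of -0.13, and of the 29 accessory genes 18 were lower and 1 was higher with a median of -0.23; the difference between these medians was not tested. Ndufs1, the largest iron-sulfur subunit, had 2257, 2312 and 2262 in ND and 1956, 1815 and 1710.4 in CDAHFD. It fell by 19.8% in non-overlapping groups (-0.32 ± 0.05 SE, adjusted p = 4.23e-06). Ndufs8, a further iron-sulfur subunit, had 1077, 1121 and 1015 in ND and 875, 889 and 886 in CDAHFD and changed by -0.28 ± 0.06 SE (adjusted p = 0.000223). Smaller changes were measured for Ndufv2 (-0.17 ± 0.05 SE, adjusted p = 0.00676), an iron-sulfur subunit of the NADH module, and for Ndufv1 (-0.13 ± 0.05 SE, adjusted p = 0.0316), the subunit that binds NADH and the flavin. Ndufs3, a subunit of the hydrophilic arm, changed by -0.13 ± 0.05 SE (adjusted p = 0.0422). The calls of Ndufv1 and Ndufs3 were lost under DESeq2 (adjusted p = 0.0649 and 0.0781) and when ND replicate 2 was left out (0.0806 and 0.161). Ndufs7, a further iron-sulfur subunit, did not pass: it had 1302, 1251 and 1171 in ND and 1153, 1292 and 1229 in CDAHFD, and the groups overlapped (-0.02 ± 0.06 SE, adjusted p = 0.811).

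Ndufab1 went the other way. It encodes the mitochondrial acyl carrier protein, which sits in complex I and also serves mitochondrial fatty acid synthesis. Its counts were 561, 533 and 543 in ND and 651, 621 and 629 in CDAHFD, so that each CDAHFD library was above each ND library, and the log2 fold change was 0.22 ± 0.07 SE (adjusted p = 0.00993). Pseudogene copies of Ndufab1 are annotated, and 2 of them were in the table at lower counts: Gm4459 at a mean of 59.8 in ND and 65.2 in CDAHFD, and Ndufab1-ps at 41.1 and 43.1. Ndufa12, an accessory subunit named here after its values were seen, had the widest spread of the complex, with 294, 179.6 and 175 in ND and 149, 137 and 196 in CDAHFD. The first ND library was the highest by far, and Ndufa12 did not pass (adjusted p = 0.134). Its pseudogene copy Gm15920, 99.5% identical over 402 bases, had 221, 261 and 267 in ND and 295, 259 and 196 in CDAHFD. That is a higher mean than that of Ndufa12, so the values and the spread of Ndufa12 are uncertain.

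Complex II, succinate dehydrogenase, is the only complex without an mt-encoded subunit, and its 4 genes did not share a direction. Sdhd, a membrane anchor, had 1621, 1673 and 1685 in ND and 1476, 1378 and 1475 in CDAHFD and fell by 13.1% (-0.20 ± 0.05 SE, adjusted p = 0.00129). Sdhb, the iron-sulfur subunit, had 1785, 1918 and 1727 in ND and 1607, 1512 and 1617 in CDAHFD and fell by 12.8% (-0.20 ± 0.05 SE, adjusted p = 0.00214). Both had all CDAHFD libraries below all ND libraries. Sdhc, the other membrane anchor (chr1:171127165-171150603, minus strand), had 1417, 1384 and 1389 in ND and 1584, 1551 and 1547 in CDAHFD. These groups were separated in the opposite direction, and Sdhc rose by 11.8% (0.16 ± 0.05 SE, adjusted p = 0.00769). Sdha, the flavoprotein that oxidises succinate, had 7409, 7275 and 6644 in ND and 7647, 7069.8 and 6937 in CDAHFD, which overlapped (0.02 ± 0.05 SE, adjusted p = 0.723). Summed per kb of transcript, complex II made up 3.66, 3.57 and 3.56% of the nuclear members in ND and 3.87, 3.84 and 3.96% in CDAHFD, a larger share in every CDAHFD library.

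Complex III, the cytochrome bc1 complex, held the largest fall among the members. Uqcrq, a small subunit associated with cytochrome b (chr11:53427922-53430831, minus strand), had 1303, 1339.8 and 1191 in ND and 708, 806 and 778 in CDAHFD. The highest CDAHFD library was well below the lowest ND library. Uqcrq fell by 40.2%, a log2 fold change of -0.74 ± 0.06 SE (adjusted p = 5.28e-11), while the next nuclear member called lower changed by -0.43. No annotated transcript of another gene matched Uqcrq at 95% identity or more over 100 bases, and no other annotated gene shared exonic bases with it. Uqcr10, another small subunit, had 813, 919 and 850.4 in ND and 718, 612 and 648 in CDAHFD and fell by 23.4% (-0.39 ± 0.07 SE, adjusted p = 3.22e-05). Only Uqcrq, Ndufb11 and Uqcr10 among the 53 lower nuclear members had a difference of more than 1.3-fold.

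The larger complex III subunits fell by less. Uqcrfs1, the Rieske iron-sulfur protein that receives electrons from ubiquinol, had 1913, 2112 and 1974 in ND and 1703, 1635 and 1617 in CDAHFD, a log2 fold change of -0.27 ± 0.05 SE (adjusted p = 3.31e-05). Uqcrc2, a core protein of the matrix side, had 3572, 3681 and 3524 in ND and 3084, 2838 and 3041 in CDAHFD and changed by -0.27 ± 0.04 SE (adjusted p = 9.38e-06). In both the groups were apart; Uqcrc2 shares exonic bases with Pdzd9 on the opposite strand. With Uqcrh, the hinge protein at cytochrome c1 (-0.24, adjusted p = 0.00291), 5 of the 8 nuclear members of complex III were lower, with a median of -0.25. The 3 that did not pass were Uqcrc1, the other core protein (3353, 3270.3 and 3467 in ND and 3381, 3341 and 3233 in CDAHFD; adjusted p = 0.745), Uqcr11 (0.01, adjusted p = 0.913) and Uqcrb (-0.12, adjusted p = 0.646). The paired core proteins Uqcrc1 and Uqcrc2 therefore had unlike values in the same libraries: overlapping groups for Uqcrc1, separate groups for Uqcrc2. The difference between them was not tested.

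Complex IV, cytochrome c oxidase, had 14 nuclear members, with Ndufa4 placed here because the protein is a subunit of this complex despite its name. Of these 8 were lower and none higher, with a median of -0.21. Cox7a2l, a factor linked to supercomplexes of complexes III and IV, was the most abundant of them per kb of transcript. It had 8819, 9392 and 9163 in ND and 7772, 7474 and 7291 in CDAHFD. Whether its protein acts in this way in these mice was not tested. It fell by 17.7% without overlap (-0.28 ± 0.04 SE, adjusted p = 1.07e-06). The small structural subunits Cox6c (-0.28 ± 0.06 SE, adjusted p = 0.00012), Cox7a2 (-0.29 ± 0.06 SE, adjusted p = 0.000233) and Cox7b (-0.26 ± 0.06 SE, adjusted p = 0.000382) fell by similar amounts. Lower values also passed for Ndufa4 (-0.22 ± 0.06 SE, adjusted p = 0.00772), Cox6b1 (-0.19 ± 0.05 SE, adjusted p = 0.0038), Cox8a (-0.15 ± 0.04 SE, adjusted p = 0.00589) and Cox5b (-0.20, adjusted p = 0.00295). Ndufa4 lost its call without ND replicate 2 (adjusted p = 0.0647) and without CDAHFD replicate 2 (0.0507).

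Among paired isoforms of complex IV the ubiquitous form was by far the more abundant in both diets. Cox7a2 held 95.9% ± 0.688 (SD, n = 3) of the summed Cox7a1 and Cox7a2 counts per kb in ND and 96.0% ± 0.734 in CDAHFD. Cox7a1, the heart and muscle form, had normalised counts of 25.0, 31.6 and 21.7 in ND and 20.1, 24.6 and 18.4 in CDAHFD and did not pass (adjusted p = 0.439). Cox6b1 held 98.3% ± 0.114 of its pair in ND and 98.8% ± 0.225 in CDAHFD. The testis form Cox6b2 had 21.9, 25.5 and 23.6 in ND and 18.0, 12.3 and 14.5 in CDAHFD, separate groups at a very low level, and a log2 fold change of -0.64 ± 0.32 SE (adjusted p = 0.0999) that did not pass. Cox4i1, the regulatory subunit that binds ATP, had 5310.4, 5234 and 4813 in ND and 5311, 4687 and 4495 in CDAHFD, with overlapping groups (-0.09 ± 0.05 SE, adjusted p = 0.214). Leaving out CDAHFD replicate 1 brought Cox4i1 past the threshold (-0.16, adjusted p = 0.00237). Cox6a1 had 3086, 2846 and 2741 in ND and 2712, 2781 and 2903 in CDAHFD, also overlapping (adjusted p = 0.457), and Cox5a (0.04, adjusted p = 0.584) and Cox7c (-0.06, adjusted p = 0.478) did not pass either.

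Complex V, ATP synthase, was the complex with the largest share of its genes lower: 15 of 17, or 88.2%, with none higher and a median of -0.22. The proteolipid c ring, which rotates as protons pass, is made of 1 mature protein encoded by 3 genes. Atp5g2 had 2939.8, 3092 and 2871 in ND and 2275, 2410.3 and 2312 in CDAHFD and fell by 21.4% (-0.35 ± 0.04 SE, adjusted p = 2.21e-07). Atp5g3 changed by -0.25 ± 0.05 SE (adjusted p = 3.59e-05) and Atp5g1 by -0.29 ± 0.07 SE (adjusted p = 0.00108), and in all 3 genes the groups were apart. Their shares of the summed counts per kb were near equal between diets: Atp5g1 15.7% ± 0.577 in ND and 15.8% ± 1.44 in CDAHFD, Atp5g2 41.1% ± 0.440 and 39.6% ± 1.64, Atp5g3 43.2% ± 0.964 and 44.6% ± 2.08 (SD, n = 3). Each share overlapped between the diets. Reads of Atp5g2 and Atp5g1 may be divided with near-identical pseudogenes, Gm10175 and Gm10039. The Gm10175 transcript matches 88.2% of Atp5g2 at 100% identity and had a mean of 119 in ND and 118 in CDAHFD. Gm10039 matches 69.0% of Atp5g1 at 99.8% identity and had 395, 328 and 387 in ND and 423, 379 and 350.4 in CDAHFD, with overlap (0.05 ± 0.09 SE, adjusted p = 0.667), beside 887, 987 and 904 in ND and 702, 736 and 845 in CDAHFD for Atp5g1. How reads that match both were counted is not given in the sources used here, so the change and the share of Atp5g1 are uncertain.

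Within the catalytic F1 head all 5 subunit genes were lower, with log2 fold changes from -0.24 to -0.10. Atp5b, the catalytic beta subunit and the nuclear member with the highest counts, had 17546, 16896 and 16116 in ND and 16218, 15560.3 and 15498 in CDAHFD; the groups overlapped slightly, and the change of -0.10 ± 0.04 SE (adjusted p = 0.0464) was lost under edgeR (adjusted p = 0.0511) and TMM scaling (0.0873). Atp5a1, the alpha subunit, had 15338, 15586 and 14703 in ND and 14253, 13770.3 and 13723 in CDAHFD and changed by -0.13 ± 0.04 SE (adjusted p = 0.00674), with all CDAHFD libraries below. Atp5c1, the gamma shaft, fell by 14.2% (-0.22 ± 0.04 SE, adjusted p = 8.09e-05). Atp5f1, the b subunit of the outer stalk, had 3948, 4119 and 3993 in ND and 3607, 3206 and 3190.4 in CDAHFD and fell by 17.1% (-0.27 ± 0.05 SE, adjusted p = 1.69e-05), and it shares exonic bases with Wdr77 on the opposite strand. The other 8 lower genes, Atp5k, Atp5e, Atp5mpl, Atp5j2, Atp5l, Atp5d, Atp5o and Atp5h, ran from -0.35 (Atp5k, a small membrane subunit) to -0.14 (Atp5h, the d subunit of the stalk). The 2 genes of complex V that did not pass were Atp5j, a stalk subunit (-0.12, adjusted p = 0.0634), and Atp5s, a coupling factor of low abundance (0.09, adjusted p = 0.659).

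**Figure D2:**
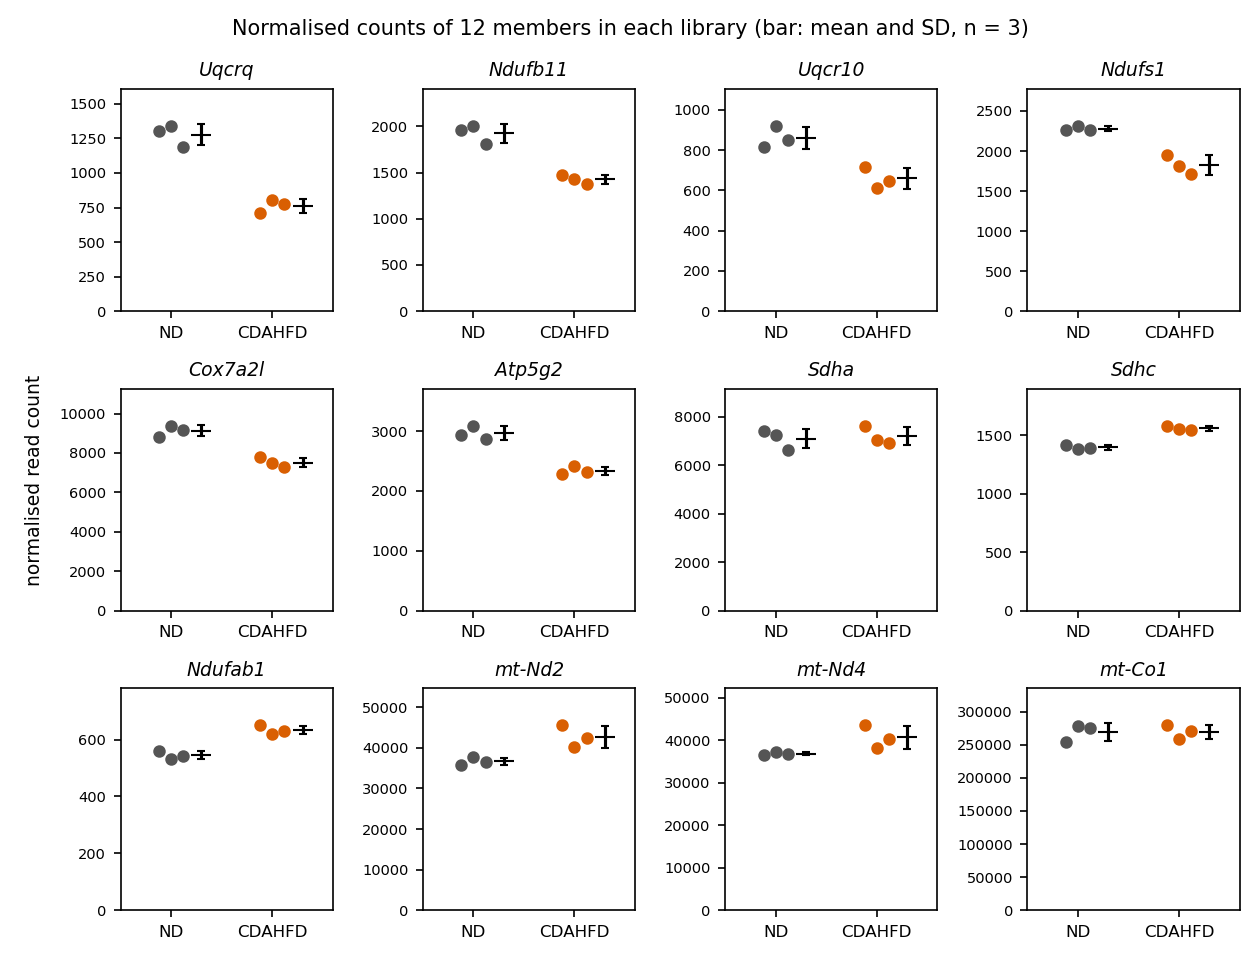
Normalised read counts (vertical axes from 0) of 12 members in each ND and CDAHFD library, with the mean and SD of each diet beside the points. Uqcrq shows the widest gap, Sdhc, Ndufab1, mt-Nd2 and mt-Nd4 lie higher in CDAHFD, and Sdha and mt-Co1 overlap.

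The mt-encoded members had a median near 0. Complex I has 7 mt-encoded subunits, which form the proton-pumping membrane arm. mt-Nd2 had normalised counts of 35803, 37662 and 36513 in ND and 45646, 40234 and 42361 in CDAHFD; each CDAHFD library was higher than each ND library (0.22 ± 0.04 SE, adjusted p = 7.33e-05). mt-Nd4 had 36429, 37191 and 36781 in ND and 43566, 38137 and 40266 in CDAHFD, likewise apart, with 0.14 ± 0.04 SE (adjusted p = 0.00602). Its call was lost without trended, robust variance estimation (adjusted p = 0.122). mt-Nd5 (58838, 58492 and 61620.3 in ND and 60833, 56548 and 58505 in CDAHFD) and mt-Nd6 (11478, 11884 and 11749 in ND and 12179.9, 11394 and 12113 in CDAHFD) overlapped between diets, with adjusted p of 0.622 and 0.664. mt-Nd1 had 56048, 60478 and 59174 in ND and 58919, 50559 and 55326 in CDAHFD and did not pass (-0.09 ± 0.05 SE, adjusted p = 0.104), but it did when CDAHFD replicate 1 was left out (-0.15, adjusted p = 0.0022) and under equal library totals (-0.11, 0.0377). The low-count mt-Nd3 (384, 494 and 455 in ND and 653, 449 and 442 in CDAHFD) and mt-Nd4l (130.3, 102 and 98.1 in ND and 131, 129 and 109 in CDAHFD) overlapped, with adjusted p of 0.412 and 0.381.

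mt-Co1, the catalytic subunit of complex IV that holds the oxygen-reducing site, had 254362, 278619 and 275164 in ND and 279946, 258087 and 270553 in CDAHFD. It alone held 48.9 ± 0.688% of the reads of the 12 mt members in ND and 48.4 ± 0.427% in CDAHFD (SD, n = 3), and its log2 fold change was 0.00 ± 0.04 SE (adjusted p = 0.984). The direction of mt-Co1 and of mt-Cytb turned under equal library totals. mt-Cytb, the cytochrome b of complex III, had 70554, 74702 and 72907 in ND and 77626, 68995 and 74685 in CDAHFD, with overlap (0.02 ± 0.04 SE, adjusted p = 0.734). mt-Co2, which receives electrons from cytochrome c, had 1511, 1482 and 1353 in ND and 1628, 1849 and 1373 in CDAHFD and did not pass (0.15 ± 0.10 SE, adjusted p = 0.289); it passed without CDAHFD replicate 3 (0.26, adjusted p = 0.00151). mt-Co3, the third core subunit, had 1372, 1374 and 1394 in ND and 1413, 1185 and 1056 in CDAHFD, with CDAHFD replicate 1 the highest of the 6 libraries and the other CDAHFD libraries below every ND library (-0.19 ± 0.08 SE, adjusted p = 0.0708). Without that library its value was -0.30 (adjusted p = 2.6e-05), and edgeR called it too (-0.18, 0.0377). mt-Atp6, the proton channel subunit of ATP synthase, had 1395, 1464 and 1398 in ND and 1249, 1297 and 1345 in CDAHFD. The groups were apart, but the call (-0.13 ± 0.05 SE, adjusted p = 0.0403) was lost under DESeq2 (adjusted p = 0.0805), TMM scaling (0.0687), and when any library other than CDAHFD replicate 3 was left out (0.0575 to 0.161).

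Both genomes were next compared by their summed levels. The 79 nuclear members took 0.603, 0.621 and 0.591% of the reads assigned to genes in ND and 0.544, 0.524 and 0.522% in CDAHFD, a lower share in each CDAHFD library. The 12 mt members took 2.00, 2.14 and 2.13% in ND and 2.16, 1.99 and 2.11% in CDAHFD, and these overlapped. On the scale of normalised counts per kb of transcript, the ratio of the mt sum to the nuclear sum was 2.54, 2.59 and 2.73 in ND and 3.04, 2.92 and 3.11 in CDAHFD. Every CDAHFD library had the higher ratio, and the log2 difference of the diet means was 0.21. With plain counts in place of counts per kb that difference was 0.19, and leaving out each library in turn gave 0.18 to 0.23. This ratio carries no test, since the members were chosen with results of these data known. mt-Co1 weighs heavily in the mt sum, as given above.

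**Figure D3:**
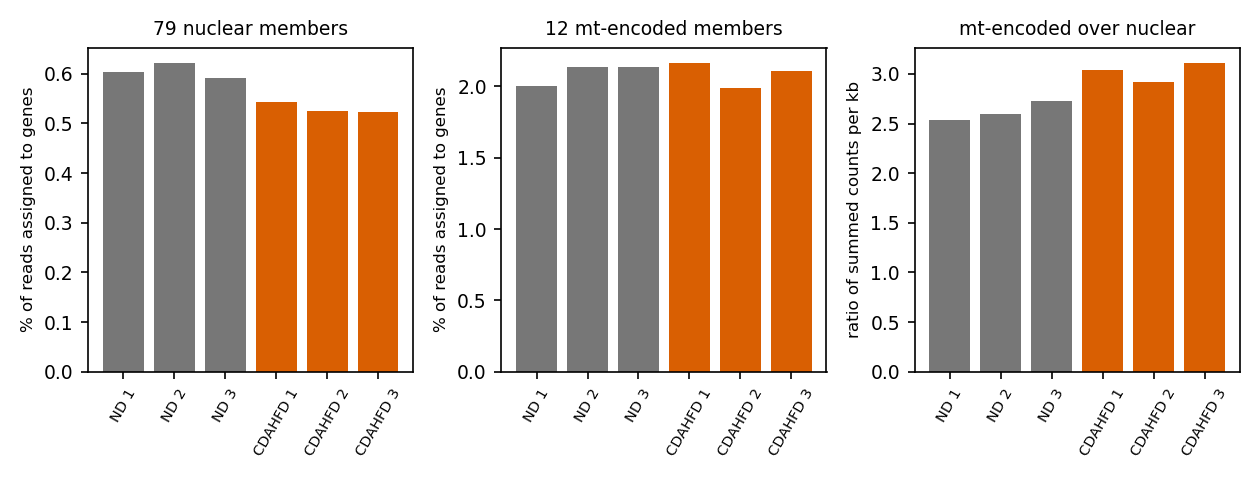
Bars give, for each library, the percent of reads assigned to genes that fell in the 79 nuclear members (left) and the 12 mt members (middle), and the ratio of their summed counts per kb (right). Nuclear shares are lower in CDAHFD, mt shares overlap, and the ratio is at most 2.73 in ND and at least 2.92 in CDAHFD.

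The complexes were also compared by the summed counts per kb of their nuclear members. These sums were lower in every CDAHFD library than in any ND library for complexes I (log2 difference of means -0.20), III (-0.23), IV (-0.17) and V (-0.20), and overlapped for complex II (-0.07). Of the summed nuclear counts per kb, complex I made up 25.7 ± 0.440% in ND and 25.5 ± 0.169% in CDAHFD, complex III 9.82 ± 0.249% and 9.55 ± 0.174%, and complex V 34.7 ± 0.369% and 34.4 ± 0.155% (SD, n = 3), each with overlap between the diets. The shares of complex II (3.60 ± 0.0567% and 3.89 ± 0.0649%) and of complex IV (26.2 ± 0.115% and 26.6 ± 0.117%) were higher in every CDAHFD library than in any ND library. Levels per kb ranged in ND from 42.8 for Cox6b2 and 66.4 for Atp5s to 8480.2 for Cox7a2l and 8796 for Atp5b among the nuclear members.

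Levels of the mt members fell into groups at least 10.1-fold apart, and the lower group was made up of genes with near-identical copies in the nuclear genome. A stretch of chromosome 1 (chr1:24611535-24616197 in mm10) holds annotated pseudogenes that repeat part of the mitochondrial genome. For mt-Co2, mt-Atp6, mt-Co3, mt-Nd3 and mt-Nd4l the copy spans nearly the whole gene at 99.7% to 100% identity. The first 60 aligned bases of each of 3 gene and copy pairs are shown, 5′ to 3′ on the strand of the mt gene, because they show how far a read could tell the places apart. Capitals mark bases at which gene and copy differ.
mt-Co2: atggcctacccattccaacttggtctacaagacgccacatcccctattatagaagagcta
Gm28661: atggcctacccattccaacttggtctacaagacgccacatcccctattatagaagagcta
mt-Nd3: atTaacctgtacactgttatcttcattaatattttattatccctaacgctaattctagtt
Gm28438: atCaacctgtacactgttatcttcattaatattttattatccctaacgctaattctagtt
mt-Cytb: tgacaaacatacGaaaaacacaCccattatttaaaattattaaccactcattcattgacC
Gm11410: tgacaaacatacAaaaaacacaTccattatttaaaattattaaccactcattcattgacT
mt-Co2 and Gm28661 had 0 differences over 681 aligned bases, and mt-Nd3 and Gm28438 had 1 over 345. mt-Cytb and its closest annotated copy, Gm11410 on chromosome 4, had 81 over 1142.

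The 5 mt genes with a near-complete identical copy had the 5 lowest levels per kb. Their means over the 6 libraries ran from 393 normalised counts per kb (mt-Nd4l) to 2240.4 (mt-Co2), and the other 7 mt genes ran from 22736 (mt-Nd6) to 174405 (mt-Co1), at least 10.1-fold more. Together these 5 held 0.864% of the reads of the mt members. How reads that match both places were treated is not given in the sources used here, so the values of mt-Co2, mt-Co3, mt-Atp6, mt-Nd3 and mt-Nd4l are uncertain, and the part of the copies in them was not tested. The copies were themselves counted, and the mean of the mt gene over the 6 libraries was 0.717 (mt-Atp6) to 2.26 (mt-Nd3) times that of its copy in these 5 pairs. Gm28661 had 1309, 1100.0 and 1294 in ND and 1498, 1086 and 1117 in CDAHFD beside mt-Co2, and Gm10222 had 115, 127 and 102 in ND and 128, 102 and 91.0 in CDAHFD beside mt-Nd4l. Gm28438, the copy of mt-Nd3, had 300.2, 285 and 268 in ND and 167, 140.2 and 113 in CDAHFD, and fell by 50.7% (-1.03 ± 0.12 SE, adjusted p = 7.57e-08), while mt-Nd3 itself did not pass. mt-Nd4 is also matched at 100% identity over 63.6% of its length by Gm28439, but had 26706 counts per kb in ND, and mt-Co1 is matched over its full length at 97.6% identity by Gm13340 on chromosome 2. mt-Nd2, which was called higher, is matched at 96.7% identity over 49.1% of its length by Gm13339 on chromosome 2. For mt-Nd5 a copy of at least 95% identity over at least 100 bases, Gm4076, is annotated. The mt to nuclear ratio per kb changed by the same 0.21 with only the 7 genes without a near-complete identical copy, and by 0.21 with the copies' reads added to their genes. The 5 genes and the copies held few reads beside the mt sum, so neither step could move the ratio much. The 7 genes kept include mt-Nd4, mt-Co1, mt-Nd2 and mt-Nd5.

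**Figure D4:**
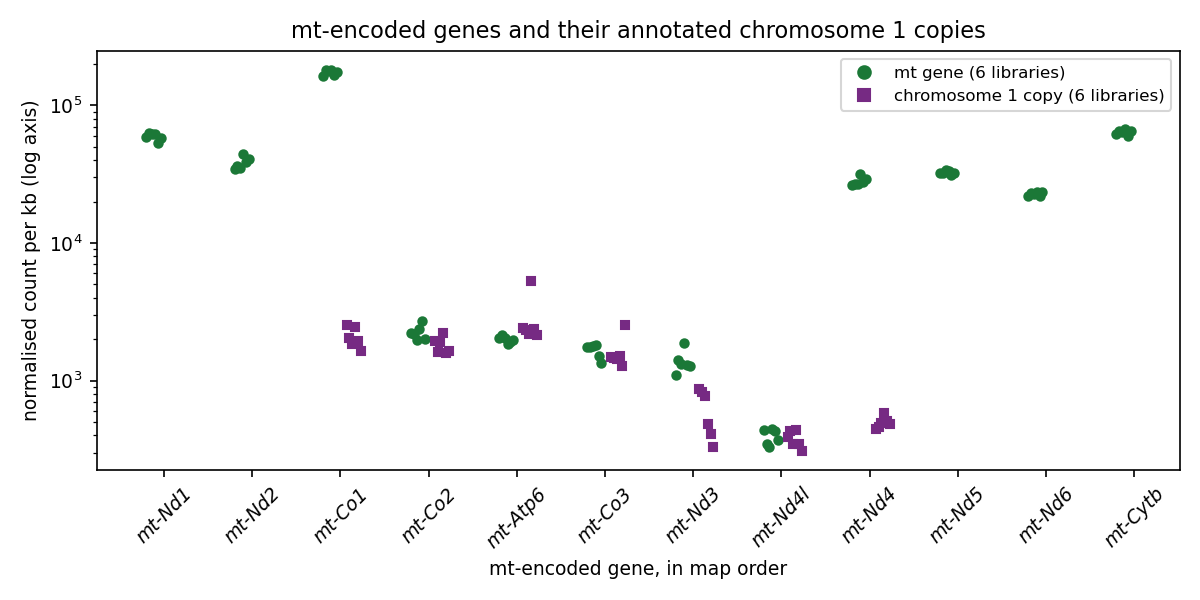
Normalised counts per kb (log axis) of the 12 mt members in map order and of their annotated chromosome 1 copies, 1 point per library. The 5 genes with a near-complete identical copy, mt-Co2 to mt-Nd4l, had mean normalised counts of 0.717 (mt-Atp6) to 2.26 (mt-Nd3) times those of their copies, and per kb the other 7 lie at least 10.1-fold above these 5.

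Promoters of the nuclear members were examined because these genes moved together. RefSeq promoters (GRCm38.p6) were matched by symbol, taking the 250 bases before each annotated start. Member promoters were kept only if their end lay in an annotated transcript of the gene, which left 58 of the 79 nuclear members. The background genes did not get this filter, so the shares set side by side are not counted alike. Of the 58 members 12 (20.7%) held the palindrome of the nuclear respiratory factor NRF1, spelled GCGC, any 2 bases and GCGC. The background shares were 11.5% of the 10559 tested genes with a promoter and 5.6% of all 27025. The ETS-type letters CCGGAAG, as bound by GABP, were in 10 (17.2%, against 15.4% and 7.8%). The YY1 letters AAGATGGC were in 1 (1.7%, against 2.5% and 1.8%), and the SP1 letters GGGCGG in 20 (34.5%, against 60.8% and 35.4%). Both strands were searched, and matches of different motifs shared bases in 1 member (Ndufs3, ETS and SP1). Members with the NRF1 letters had 5 lower, 1 higher and 6 not called, with a median of -0.17, and the 46 without them had 34 lower and 12 not called, with a median of -0.23. A match describes letters only.

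The 250 bases before the start of 3 members are printed 5′ to 3′ on the gene's strand, chosen because they show the NRF1 letters, the ETS letters and both, with those matches, on either strand, in capitals. Ndufa11 (chr17:56717512-56717761, plus strand), an accessory complex I subunit, was lower (-0.26 ± 0.08 SE, adjusted p = 0.00962). Ndufb6 (chr4:40279422-40279671, minus strand), an accessory subunit of the membrane arm, was lower (-0.28 ± 0.09 SE, adjusted p = 0.0149). Cox6a1 (chr5:115348959-115349208, minus strand) did not pass and held both motifs.
Ndufa11: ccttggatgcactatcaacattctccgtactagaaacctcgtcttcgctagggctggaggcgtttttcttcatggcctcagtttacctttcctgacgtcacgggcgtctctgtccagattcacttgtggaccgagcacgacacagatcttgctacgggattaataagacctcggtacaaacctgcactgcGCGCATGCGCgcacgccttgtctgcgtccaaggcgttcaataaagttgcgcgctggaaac
Ndufb6: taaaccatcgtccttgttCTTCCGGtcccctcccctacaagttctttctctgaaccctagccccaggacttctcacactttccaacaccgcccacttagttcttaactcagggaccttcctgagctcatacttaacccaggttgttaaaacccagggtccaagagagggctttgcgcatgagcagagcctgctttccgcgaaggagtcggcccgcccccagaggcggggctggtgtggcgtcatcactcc
Cox6a1: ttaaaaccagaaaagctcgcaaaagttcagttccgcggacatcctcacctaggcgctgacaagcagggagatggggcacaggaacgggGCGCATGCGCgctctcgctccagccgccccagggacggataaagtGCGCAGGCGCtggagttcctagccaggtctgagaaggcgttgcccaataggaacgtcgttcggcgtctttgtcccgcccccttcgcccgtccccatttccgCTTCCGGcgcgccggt
Transcripts of factors that bind such letters were mostly not called. Nrf1 had 1523, 1501 and 1549 in ND and 1596, 1343 and 1422 in CDAHFD (-0.07, adjusted p = 0.312), and Sp1 (-0.06, adjusted p = 0.214) and Yy1 (-0.09, adjusted p = 0.0505) did not pass either. Of the GABP subunits, the DNA-binding Gabpa (-0.08, adjusted p = 0.176) and Gabpb1 (0.03, adjusted p = 0.643) did not pass. Gabpb2, an alternative beta subunit, had 8816, 8578 and 8899 in ND and 8357, 8063 and 7913 in CDAHFD and fell by 7.46% (-0.11 ± 0.04 SE, adjusted p = 0.0182), with every CDAHFD library below every ND library.

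Other genes that build or serve the chain had medians nearer 0 than its nuclear subunits. Of 50 assembly factors tested 11 were lower and 1 was higher, a median of -0.06, and 22% lower against 22.5% of all genes tested. Lyrm7, which keeps the Rieske protein Uqcrfs1 stable in the matrix before its insertion, had 308, 284 and 258 in ND and 108, 129.7 and 133 in CDAHFD. It fell by 56.4% with wide separation (-1.19 ± 0.12 SE, adjusted p = 1.61e-09), more than any member did. Ndufaf6, a complex I assembly factor, fell by 34.9% (-0.61 ± 0.14 SE, adjusted p = 0.000503). Cox17, the copper chaperone of complex IV, was the factor that rose, with 218, 263 and 227 in ND and 345, 339 and 315 in CDAHFD (0.50 ± 0.10 SE, adjusted p = 0.00012).

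Of 19 genes for electron carriers and ubiquinone synthesis 3 rose and 3 (15.8%) fell, a median of -0.05. Of all genes tested 24.6% rose and 22.5% fell. Etfb, the beta subunit of the flavoprotein that feeds electrons from fatty acid oxidation into ubiquinone, had 115, 82.7 and 82.0 in ND and 169, 166 and 169 in CDAHFD and rose (0.86 ± 0.14 SE, adjusted p = 1.3e-05). In ubiquinone synthesis Coq7, a hydroxylase, had 134, 151 and 146 in ND and 95.2, 93.8 and 85.2 in CDAHFD and fell (-0.65 ± 0.14 SE, adjusted p = 0.000291), while Coq9, its partner, had 655, 744 and 657 in ND and 763, 870.4 and 838 in CDAHFD and rose (0.27 ± 0.07 SE, adjusted p = 0.00206). Cyc1, the cytochrome c1 of complex III, which the naming rule leaves out, had 2117, 2116 and 2036 in ND and 1973, 2020.1 and 2081 in CDAHFD and did not pass (adjusted p = 0.439). Cycs, cytochrome c itself, fell by 14.3% (-0.22 ± 0.06 SE, adjusted p = 0.0041).

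Of 27 genes for transcription and RNA handling in mitochondria 5 (18.5%) fell and 1 rose, a median of 0.00. The share that fell was below the 22.5% of all genes tested. Hsd17b10, a subunit of mitochondrial RNase P, changed by -0.40 ± 0.06 SE (adjusted p = 3.97e-06), Tfam, the factor that packages and transcribes mitochondrial DNA, by -0.28 ± 0.05 SE (adjusted p = 2.06e-05), and Tbrg4, a FASTK family protein, by -0.15 ± 0.05 SE (adjusted p = 0.0076). Tfam had 1802, 1924 and 1842 in ND and 1577, 1529.5 and 1465 in CDAHFD, apart between the diets, beside mt-encoded sums that overlapped. The mt ribosomal RNAs did not pass: mt-Rnr2 had 15440.3, 16139 and 15983 in ND and 17823, 12786 and 14029.8 in CDAHFD (adjusted p = 0.598), with CDAHFD replicate 1 the highest and CDAHFD replicate 2 the lowest. Among 18 regulators of mitochondrial genes 3 rose and 2 (11.1%) fell, beside 24.6% and 22.5% of all genes tested. Pparg, a nuclear receptor for fatty acids, had 78.2, 86.7 and 73.5 in ND and 375, 374 and 409 in CDAHFD (2.27 ± 0.12 SE, adjusted p = 1.05e-15). Tfe3, a factor of lysosome and mitochondrial gene programmes, rose (0.60 ± 0.06 SE, adjusted p = 8.4e-10), and Foxo1, a factor of T cell quiescence, fell (-0.39 ± 0.04 SE, adjusted p = 2.37e-09). Ppargc1a, a coactivator of mitochondrial genes, had 8.34, 6.12 and 5.66 in ND and 13.7, 9.47 and 26.1 in CDAHFD, near the lowest level tested (1.08 ± 0.45 SE, adjusted p = 0.0475). All its ND values were under 10, so it passed the filter on the mean only through the CDAHFD libraries where it is high. Its count among the regulators that rose therefore carries little weight. The other regulator that fell was Gabpb2, given above. Macrophage markers rose in the same libraries, as given above, and their part in the values of Pparg was not tested.

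Of 6 uncouplers and carriers tested 2 rose and 2 (33.3%) fell, beside 24.6% and 22.5% of all genes tested. Ucp3, an inner membrane carrier of the uncoupling protein family, had 8.34, 12.2 and 10.4 in ND and 379, 331 and 369.8 in CDAHFD (5.01 ± 0.19 SE, adjusted p = 6.74e-19), the widest difference among these lists apart from a macrophage marker. Ucp2, its abundant relative in immune cells, had 18129, 17985 and 17595 in ND and 21699.6, 23124 and 23684 in CDAHFD and rose by 27.6% (0.35 ± 0.04 SE, adjusted p = 1.46e-08). Markers of macrophages, erythroid cells and neutrophils rose in the same libraries, as given above. The part of those cells in the values of Ucp3, Ucp2, Etfb and the other genes of these lists was not tested. Slc25a5, which exchanges ADP and ATP across the inner membrane, had 8614, 9092 and 8694 in ND and 8077, 7289.6 and 7408 in CDAHFD and fell by 13.7% (-0.21 ± 0.04 SE, adjusted p = 0.000113), an amount like the median of the nuclear members.

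Ribosomal protein genes moved more like the nuclear members. Of 81 cytosolic ribosomal protein genes 56 (69.1%) were lower and none higher, a median of -0.20. Of 77 mitochondrial ribosomal protein genes 33 (42.9%) were lower and 2 higher, a median of -0.13. The share lower over all genes tested was 22.5%. Transcripts under 750 bases belonged to 39 of the 79 nuclear members. Among all tested protein-coding genes the median log2 fold change was -0.12 for transcripts under 750 bases, -0.08 from 750 to 1500, -0.02 from 1500 to 3000 and 0.02 above 3000 bases. Nuclear members in the same bins had medians of -0.23 (39 genes), -0.20 (24 genes), -0.18 (14 genes) and 0.19 (2 genes). The 2 genes of the last bin were Ndufab1 and Sdhc, the only nuclear members called higher. The part of transcript length in the members' values was not tested.

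**Figure D5:**
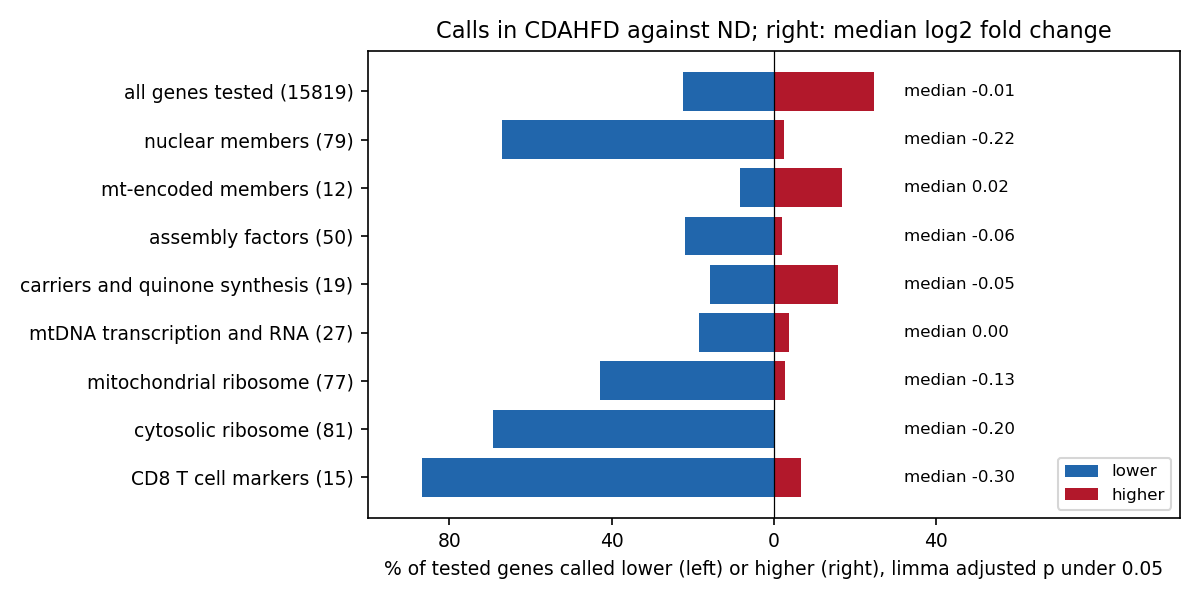
Percent of tested genes called lower (left) or higher (right) in CDAHFD for all genes, the members and related lists, with the median log2 fold change at the right and the number of genes in brackets. The nuclear members and the cytosolic ribosome have medians of -0.22 and -0.20, and assembly factors -0.06.

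The nuclear count was also taken without genes that have annotated copies or overlap another gene. Of the 79 nuclear members 26 have an annotated copy of at least 95% identity over at least 100 bases, and 28 share exonic bases with another gene. Of the 53 without such a copy 36 were lower, with a median of -0.20, and of the 51 that share no exonic base 33 were lower, with a median of -0.22. The members also shared an order among libraries. ND replicate 2 was the highest ND library for 55 of 79 nuclear members, and CDAHFD replicate 1 was the highest CDAHFD library for 52. The same libraries were highest in the sums of assembly factors and of cytosolic and mitochondrial ribosomal protein genes. They were also highest in the sums of macrophage markers and of mt ribosomal and transfer RNAs. In other lists, such as the CD8 T cell markers, they were not. This order was therefore not particular to the members, and its share over all genes tested was not counted. The median log2 difference of the nuclear members from their ND means was -0.01, 0.06 and -0.04 in the ND libraries and -0.15, -0.23 and -0.24 in the CDAHFD libraries, so that no CDAHFD library reached the ND range. The same median over all genes tested was separated too, at a far smaller size. It was 0.0017, 0.0034 and -0.0020 in ND and -0.0036, -0.0060 and -0.0101 in CDAHFD. Separation as such was therefore not particular to the members. CDAHFD replicate 1 also stood apart in Rn7sk and in mt ribosomal and transfer RNAs. A whole-RNA and an mRNA kit retain such RNAs, without a long poly(A) tail, to different degrees. Rn7sk, a small nuclear RNA, had 275, 229 and 241 in ND and 394, 114 and 119 in CDAHFD and did not pass (adjusted p = 0.546), and 14 mt ribosomal and transfer RNAs summed to 22401, 22687 and 22285 in ND and 26848, 17795 and 19779.6 in CDAHFD, with CDAHFD replicate 1 the highest and the other CDAHFD libraries the lowest in both. Rn7sk was 1 of 2 RNAs tested as signs of the kit. The other had far lower counts, did not pass and did not have this order. The part of these differences in the members' values was not tested. Without ND replicate 2 the nuclear members called lower numbered 38, and without CDAHFD replicate 1 they numbered 57.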

How the data were processed

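RNA-seq of 6 libraries was analysed. The authors deposited 1 table of normalised read counts per Ensembl gene on a signal scale; from the values, these are read counts divided by 1 factor per library. Reads were aligned to mm10, per the submitters' processing notes; the aligner, the counter and strand use are not given in the sources used here. Per the labels' protocols, libraries were made with a whole-RNA or an mRNA kit, without saying which library used which. Every deposited value was a whole multiple (within 0.001) of 1 step per library in 100% of values, so whole reads were recovered for count tests. A reference list of gene names gave symbols for 26147 of 26181 IDs. GENCODE M21 gave coordinates and the length of 1 representative transcript per gene.

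The main test was limma 3.58.1 (trended, robust; R 4.3.3) on log2(normalised count + 1), genes with a mean of at least 10, diet only, Benjamini-Hochberg over all 15819 genes. Alternatives were edgeR 4.0.16 and DESeq2 1.42.0 on recovered reads, other scalings, filters and pseudocounts, a replicate block, and leaving out each library. The fit was tested on simulated data. Copies were found with blastn 2.17.0. Named genes were all mt members, the 4 members per nuclear complex with the smallest adjusted p among those called, members called higher, fixed isoforms and core subunits, and the 3 smallest adjusted p per related list; a few more were named to complete a count or after their values were seen. A gene that this rule names is not reported here. The members and lists were chosen with earlier results of these data known. With 3 libraries per diet, the spread between libraries sets the precision.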

Additional observations from a re-analysis of the deposited data

How the results depend on the processing

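The nuclear members called lower numbered 53, and 34 without trended and robust variance estimation (with the mt members, 54 and 34). In every other setting that kept all libraries they numbered 49 to 56, and leaving out each library in turn gave 38 to 57. The number of mt members called was 3, but 5 under equal library totals, 5 under equal totals of nuclear genes and 1 without trended and robust estimation; leaving out each library gave 2 to 4. The median log2 fold change, mt members, was 0.02 and ranged from -0.0064 to 0.0505 when libraries were left out. The log2 fold change of mt-Co1 was -0.0003 under edgeR, -0.019 under equal totals and -0.019 under equal totals of nuclear genes, and that of mt-Cytb was -0.0009 and -0.0011 in the latter settings. When libraries were left out, signs turned for mt-Co1 (-0.0397 to 0.032), mt-Cytb (-0.0183 to 0.0667), mt-Nd5 (-0.0521 to 0.0006), Cox6a1 (-0.0831 to 0.0024), Sdha (-0.0259 to 0.0527) and Ndufs7 (-0.0608 to 0.0231), none of them called. The cause of these changes was not tested. Same-numbered libraries did not deviate together (r over genes of 0.04, -0.05 and 0.06), so the numbers were not taken as pairs; with a replicate block 50 nuclear members were lower and 4 mt members were called. Other settings were chosen after seeing the data: members without an annotated copy (median -0.20) and members without shared exonic bases (-0.22). Low counts limit Cox6b2, Cox7a1 and mt-Nd4l.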

Other observations

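Among the chromosome 1 copies of mt genes, single libraries stood apart. Gm10925, the copy of mt-Atp6, had 1631, 1582 and 1476 in ND and 3603, 1611 and 1459.7 in CDAHFD, so that CDAHFD replicate 1 was more than 2-fold above every other library while mt-Atp6 itself was not raised there. Gm28437, the copy of mt-Co3, had 1161, 1151 and 1116 in ND and 1185, 1007 and 1990.2 in CDAHFD, with CDAHFD replicate 3 apart from the rest. Ndufb1-ps, dropped by its name although it is annotated as a long noncoding RNA, had a mean of 328 normalised counts over the 6 libraries.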
